A study of Mus musculus with 6 samples.

Results

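The nuclear-encoded genes of oxidative phosphorylation (OXPHOS) were examined in CD4+ T cells of the mouse spleen sorted with Lrig1 (CD4+Lrig1+) or without it (CD4+Lrig1-). Members were the genes whose symbols begin with *Nduf* (a, b, c, s or v and a digit), *Uqcr*, *Cox4* to *Cox8* or *Atp5*, and *Sdha* to *Sdhd*. The rule used names only, and it gave 97 of the 45777 genes in the tables, of which 43 were assigned to complex I, 4 to complex II, 8 to complex III, 18 to complex IV and 24 to complex V. Of the 97 members, 76 were subunits of the complexes in general use, 8 were isoforms known from heart, muscle, testis or lung, 12 were pseudogenes or near-identical copies and 1, *Cox7a2l*, encodes a factor of supercomplex assembly. All 76 subunits passed the filter on low counts, with at least 210 counts in every library, and 84 of the 97 members passed it in all. The 13 that did not were 6 tissue isoforms and 7 pseudogenes or copies with at most 15 counts in any library, and 9 of them had 0 counts in all 4 libraries.

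OXPHOS is the last stage of respiration in mitochondria. Complexes I and II take electrons from NADH and succinate, ubiquinone carries them to complex III, cytochrome c carries them to complex IV, and complex IV passes them to oxygen. Complexes I, III and IV pump protons across the inner membrane, and complex V, the ATP synthase, uses the gradient to make ATP. Most subunits are encoded in the nucleus and imported, and the mitochondrial genome encodes a small set of core subunits of complexes I, III, IV and V. Regulatory T (Treg) cells are known for relying on oxidative metabolism more than effector T cells do.

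Both groups were CD4+ T cells sorted from the spleens of female C57BL/6 mice, an inbred strain, at 7 weeks of age, and they differed in the surface protein Lrig1, a transmembrane protein known for restraining epidermal growth factor receptor signalling. No allele was altered and no treatment was given in either group. RNA was sequenced in bulk after mRNA selection with a stranded kit, so that a shift in the cells that make up a group and a shift in RNA per cell cannot be told apart. By the labels there were 3 samples in each group. The tables whose columns name the Lrig1 group hold 2 libraries per group, 1 of each group in each of 2 tables (set 1 and set 2). Nothing in the labels says that the libraries came from separate mice, so the p-values measure the spread between libraries, which may be technical.

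The libraries held 44865070 to 59977951 estimated counts. Expression profiles separated by set before they separated by Lrig1, with correlations of log2 CPM across 16123 genes of 0.96 and 0.959 between the groups of a set and 0.908 between sets in either group. CPM here are counts relative to library size, scaled by the TMM method, and each ratio is CD4+Lrig1+ over CD4+Lrig1-. *Lrig1* was 221 and 75.4 CPM in the CD4+Lrig1+ and CD4+Lrig1- libraries of set 1 and 129 and 36.7 CPM in set 2, in the direction of the labels. *Foxp3*, which encodes the transcription factor that defines Treg cells, was 589 against 48.9 CPM and 615 against 30.7 CPM. All 5 genes of the naive T cell list, such as *Ccr7*, *Lef1* and *Tcf7*, were lower in the CD4+Lrig1+ library of each set.

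Promoter windows of 7 members are shown because 6 of them are among the members with the clearest difference between the groups and *Sdha* is a subunit with next to none. Each runs from 100 bases before to 20 bases from the RefSeq transcription start of GRCm38.p6, 5′ to 3′ on the strand of the gene. Capitals mark any of the letters searched for on either strand: the palindrome of nuclear respiratory factor 1 (NRF1), exact or with 1 free base, CCGGAAG of the ETS family, AAGATGG of YY1 with or without its longer extension, GGGCGG of the SP family, TGACGTCA of CREB and CACGTG of the E-box.
Ndufs8, chr19:3912755-3912874, minus strand: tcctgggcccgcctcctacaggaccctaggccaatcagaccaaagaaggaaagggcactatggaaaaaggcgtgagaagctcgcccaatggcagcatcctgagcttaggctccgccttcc
Ndufb7, chr8:83566658-83566777, plus strand: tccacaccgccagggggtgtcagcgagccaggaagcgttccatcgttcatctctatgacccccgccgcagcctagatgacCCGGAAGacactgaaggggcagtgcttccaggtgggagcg
Sdha, chr13:74350221-74350340, minus strand: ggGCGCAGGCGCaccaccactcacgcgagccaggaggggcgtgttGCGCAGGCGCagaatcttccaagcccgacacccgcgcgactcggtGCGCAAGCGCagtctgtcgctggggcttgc
Uqcr11, chr10:80406802-80406921, minus strand: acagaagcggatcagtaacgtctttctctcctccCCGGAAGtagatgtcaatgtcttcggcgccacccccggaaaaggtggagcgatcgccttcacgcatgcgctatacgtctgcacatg
Cox5b, chr1:36691387-36691506, plus strand: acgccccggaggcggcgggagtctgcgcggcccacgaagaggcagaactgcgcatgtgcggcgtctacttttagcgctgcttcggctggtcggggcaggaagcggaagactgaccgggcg
Cox6b1, chr7:30626095-30626214, minus strand: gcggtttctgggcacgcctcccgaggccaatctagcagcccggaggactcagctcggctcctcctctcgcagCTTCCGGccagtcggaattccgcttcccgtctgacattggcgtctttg
Atp5g2, chr15:102671028-102671147, minus strand: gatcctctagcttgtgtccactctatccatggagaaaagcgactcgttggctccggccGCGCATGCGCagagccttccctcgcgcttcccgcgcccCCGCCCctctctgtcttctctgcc

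The windows of *Ndufb7*, *Uqcr11* and *Cox6b1* hold the ETS letters, that of *Atp5g2* holds the NRF1 letters and an SP match, and that of *Sdha* holds the NRF1 letters with 1 free base at several places. No searched letters lie in the windows of *Ndufs8* and *Cox5b*. Over promoters of 250 bases before to 50 after the start, 64 of the 76 subunits had an entry. The NRF1 palindrome with 1 free base was in 17 of these 64 promoters (26.6%), against 5.19% of the 27025 genes with a promoter and 10.6% of the 11407 of them that were tested here. Its exact form, which the form with a free base includes, was in 5 (7.81%), against 1.07% and 2.15%. The ETS letters were in 17 (26.6%), against 9.93% and 19%, and AAGATGG was in 11 (17.2%), against 7.28% and 8.35%. The longer YY1 form, which includes AAGATGG, was in 4 (6.25%), against 0.755% and 1.67%. TGACGTCA was in 4 (6.25%), against 2.03% and 3.34%. The SP letters were in 25 (39.1%), against 38.2% of all and 63.6% of tested genes, and CACGTG was in 6 (9.38%), against 8.09% and 11.2%. These are matches of letters and not measured sites.

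As a group, the OXPHOS mRNAs were slightly higher in CD4+Lrig1+ than in CD4+Lrig1- T cells. In set 1, 76 of the 84 members tested had a log2 ratio above 0, with a median of 0.26, where 50.9% of all genes tested were above 0 and their median was 0.01. Set 2 had 60 of 84 members above 0 with a median of 0.14, against 44.3% and a median of -0.06. In both sets at once 58 of 84 members (69%) were higher, against 36.5% of all genes, and 6 (7.14%) were lower, against 41.3%. The other 20 members were higher in one set and lower in the other.

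The sizes were small. The ratio ran from 0.972-fold to 1.57-fold over the 76 subunits in set 1 and from 0.854-fold to 1.46-fold in set 2. Summed over all members, CD4+Lrig1+ T cells had 4756 CPM and CD4+Lrig1- T cells 4107 CPM in set 1 (1.16-fold), and 10966 and 10345 CPM in set 2 (1.06-fold). The difference between sets was larger than that between groups: the sum was 2.31-fold higher in set 2 than in set 1 for CD4+Lrig1+ and 2.52-fold higher for CD4+Lrig1- libraries, and all 76 subunits were higher in set 2 in each group.

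**Figure D1:**
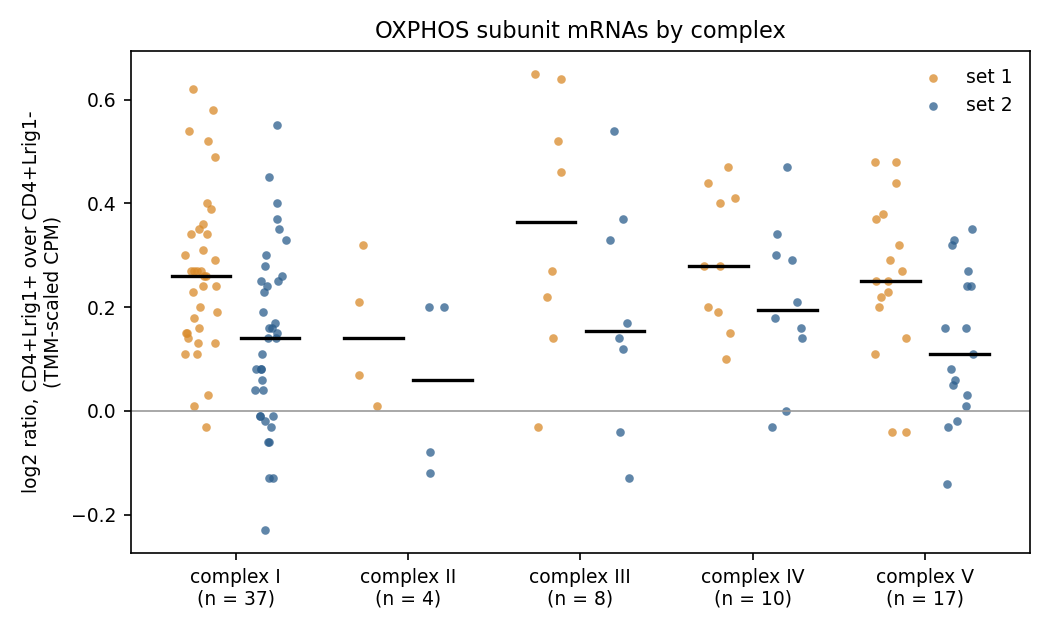
Log2 ratio between the groups (CD4+Lrig1+ over CD4+Lrig1-) (y axis, TMM-scaled CPM) of the 76 subunits by complex (x axis), set 1 in orange and set 2 in blue, each point 1 gene and each black bar the median of the subunits. Most points lie above 0 in both sets, and complex II, with 4 genes, has the lowest medians.

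No single member passed the test over the 4 libraries. In edgeR's quasi-likelihood test with libraries of a group as replicates, 0 of 84 members were called higher and 0 lower at an adjusted p under 0.05, as for all genes (0% in each direction). At an unadjusted p under 0.05 there were 0 members in either direction, against 674 of all genes (4.18%) higher and 227 (1.41%) lower, and the Wald test of DESeq2 called 0 members (1.63% of all genes higher and 0.310% lower). The smallest adjusted p of a member was 0.917. With 2 libraries against 2, an exact two-sided permutation test of 1 gene cannot go below 0.333. The level in set 2 was so far above that in set 1 that the groups of each subunit overlapped, since the CD4+Lrig1+ library of set 1 lay below the CD4+Lrig1- library of set 2. Thus 0 members were higher without overlap, against 14.3% of all genes.

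A fit with the set as a term compares the groups within each set and leaves 1 residual degree of freedom in place of 2. It called 24 of 84 members higher (28.6%), against 14.6% of all genes, and 1 member lower (1.19%), against 12.8%, at an adjusted p under 0.05 in edgeR's quasi-likelihood test. The 24 were 9 of 40 members of complex I (22.5%), 1 of 4 of complex II (25%), 3 of 8 of complex III (37.5%), 4 of 13 of complex IV (30.8%) and 7 of 19 of complex V (36.8%). DESeq2's Wald test with the same term called 20 members higher and 0 lower, against 11.5% and 12.2% of all genes, and 18 of the 20 were among the 24. With DESeq2's size factors in edgeR's test, 24 were higher and 0 lower, against 13.7% and 14.8%, and 22 of the former were shared. Adjusted p-values below are from edgeR with the set term unless another test is named.

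**Figure D2:**
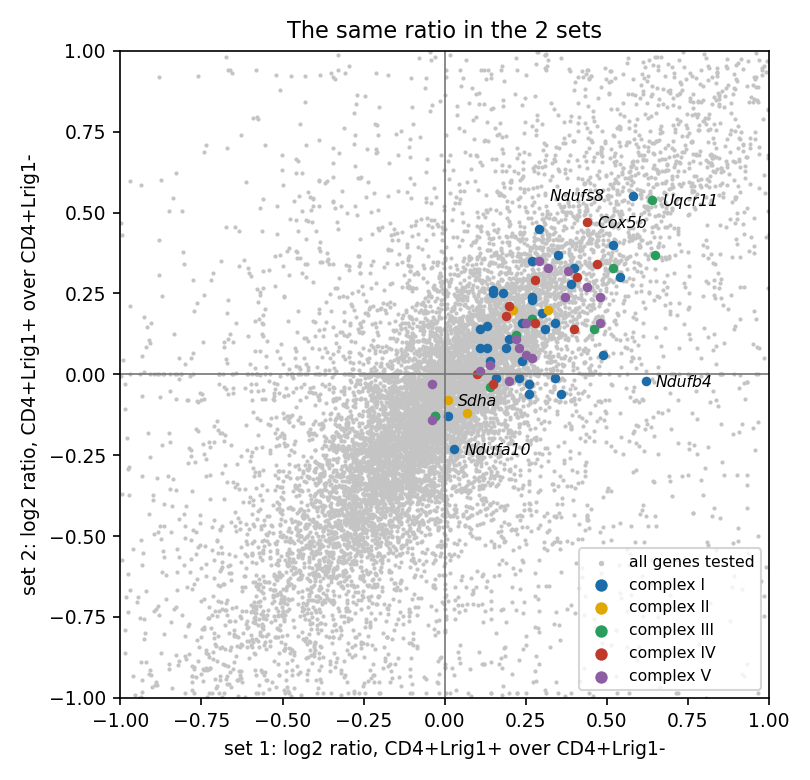
Log2 ratio between the groups (CD4+Lrig1+ over CD4+Lrig1-) in set 1 (x axis) against set 2 (y axis) for the 76 subunits, coloured by complex, over all genes tested in grey, and genes beyond 1 on either axis are not drawn. Subunits gather in the upper right quadrant, which holds 57 of the 76, and *Ndufs8* and *Uqcr11* lie farthest from both axes.

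Complex I, the NADH dehydrogenase, was 1.18-fold higher in CD4+Lrig1+ T cells in set 1 and 1.1-fold in set 2 by the summed CPM of its 43 members. Of 40 tested, 27 were higher in both sets and 1 was lower in both, *Ndufv3*, an accessory subunit of the NADH-binding module. The median log2 ratio was 0.26 in set 1 and 0.13 in set 2. Among the 7 core subunits 6 were higher in both sets, with medians of 0.15 and 0.17. Among 30 accessory subunits 21 were, with medians of 0.27 and 0.13. With the trend of all genes with transcript length removed, 4 of the 7 core subunits were higher in both sets and 1 was lower in both. Their medians were then 0.00 and 0.07. Those of the accessory subunits were 0.16 and 0.12, with 21 of 30 higher in both sets.

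*Ndufs8* (gene ID 225887, chromosome 19 from 3908863 to 3912774 of GRCm38), a core subunit that holds iron-sulfur clusters, had 38.0 CPM in the CD4+Lrig1+ and 25.4 CPM in the CD4+Lrig1- library of set 1, and 73.4 and 50.3 CPM in set 2. It was 1.5-fold and 1.46-fold higher within the sets, with the smallest adjusted p of all members (0.00226; log2 fold change 0.57 ± 0.08 SE). Without the set term its log2 fold change was 0.56 ± 0.54 (SE) with an adjusted p of 1.00 in edgeR's quasi-likelihood test, so the estimate was alike and its error wider. *Ndufb7*, an accessory subunit of the membrane arm (gene ID 66916, chromosome 8 from 83566758 to 83571623), had 40.1 and 27.9 CPM in set 1 and 72.2 and 54.8 CPM in set 2 (adjusted p = 0.00639). In the same arm *Ndufb8* had 31.0 and 24.2 CPM in set 1 and 83.1 and 64.4 CPM in set 2 (adjusted p = 0.0136). *Ndufb9* had 29.3 and 20.2 CPM, then 76.3 and 61.9 CPM (adjusted p = 0.0148). Each of these named B subunits was higher in CD4+Lrig1+ T cells in each set. Of the other B subunits, *Ndufb2*, *Ndufb5* and *Ndufb6* were also higher in both sets. In contrast, *Ndufb1-ps*, *Ndufb3*, *Ndufb4*, *Ndufb10* and *Ndufb11* were higher in set 1 only, with 0.957-fold to 0.994-fold in set 2. *Ndufs6*, an accessory subunit of the NADH-oxidising arm, had 16.2 and 12.3 CPM in set 1 and 43.7 and 34.8 CPM in set 2 (adjusted p = 0.0242). *Ndufa13*, *Ndufc2* and *Ndufb6* were also called, with adjusted p of 0.0112, 0.0321 and 0.0461.

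Other core subunits of complex I differed less. *Ndufv1*, which binds the flavin that accepts electrons from NADH, had 58.4 and 48.6 CPM in set 1 and 101 and 89.7 CPM in set 2, and missed the threshold (adjusted p = 0.0631). *Ndufs7*, which carries the last iron-sulfur cluster before ubiquinone, had 34.2 and 31.2 CPM, then 51.8 and 48.8 CPM (adjusted p = 0.38). *Ndufs1*, the largest subunit, was at 67.5 and 67.2 CPM in set 1 and lower in CD4+Lrig1+ T cells in set 2, at 76.2 against 83.6 CPM (adjusted p = 0.58). In set 1 the core subunits thus ranged from 1.5-fold higher (*Ndufs8*) to level (*Ndufs1*). *Ndufa4*, which the naming rule places here and which is now known as a subunit of complex IV, had 44.1 and 34.8 CPM, then 115 and 103 CPM (adjusted p = 0.0576).

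Complex II, succinate dehydrogenase, which also acts in the tricarboxylic acid (TCA) cycle and is wholly nuclear-encoded, showed the smallest difference by summed CPM. The sum of its 4 genes was 385 and 364 CPM in set 1 (1.06-fold) and 658 and 657 CPM in set 2 (1-fold). *Sdhd*, a membrane anchor, had 46.1 and 36.9 CPM, then 106 and 91.8 CPM, and was called higher (adjusted p = 0.0392). *Sdhb*, the iron-sulfur subunit, had 59.2 and 51.1 CPM, then 112 and 97.2 CPM (adjusted p = 0.066). *Sdha*, the flavoprotein, was at 231 and 230 CPM in set 1 and 345 and 364 CPM in set 2 (adjusted p = 0.794). *Sdhc*, the other anchor, had 48.2 and 45.8 CPM, then 95.5 and 104 CPM (adjusted p = 0.861), so that 2 of the 4 genes had opposite signs in the sets.

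Complex III, the cytochrome bc1 complex, had the highest median in set 1 of the 5 complexes, with a log2 ratio of 0.37 in set 1 and 0.15 in set 2 over 8 genes, and 6 of 8 were higher in both sets. Its small accessory subunits had the largest ratios. *Uqcr11* (gene ID 66594, chromosome 10 from 80402997 to 80406821) had 12.8 CPM in the CD4+Lrig1+ and 8.17 CPM in the CD4+Lrig1- library of set 1, and 45.1 and 31.0 CPM in set 2, so that it was 1.56-fold and 1.45-fold higher (adjusted p = 0.00414). *Uqcr10* had 22.9 and 14.6 CPM, then 62.5 and 48.2 CPM (adjusted p = 0.00933). *Uqcrq* had 30.8 and 21.5 CPM, then 69.6 and 55.3 CPM (adjusted p = 0.0122). Of the larger subunits, *Uqcrc1*, a core protein of the matrix side, had 129 and 111 CPM, then 233 and 215 CPM (adjusted p = 0.149). *Uqcrfs1*, the Rieske iron-sulfur protein that passes electrons to cytochrome c1, was lower in both sets, at 47.0 against 48.0 CPM and 122 against 134 CPM (adjusted p = 0.447).

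Complex IV, cytochrome c oxidase, had median log2 ratios of 0.20 and 0.18 over its 13 members tested, of which 8 were higher in both sets and 2 lower in both. Over its 10 subunits in general use the medians were 0.28 and 0.20, with 8 higher in both sets and 0 lower in both. *Cox5b* (gene ID 12859, chromosome 1 from 36691487 to 36693388), a subunit that binds zinc, had 40.8 and 30.1 CPM in set 1 and 84.3 and 60.9 CPM in set 2, a 1.36-fold and a 1.38-fold difference (adjusted p = 0.00496). *Cox6b1*, which faces the intermembrane space, had 52.4 and 37.8 CPM, then 166 and 131 CPM (adjusted p = 0.00676). *Cox6c* had 40.4 and 30.4 CPM, then 124 and 101 CPM (adjusted p = 0.0125), and *Cox7c* was the fourth called (adjusted p = 0.0267). *Cox4i1*, the largest nuclear-encoded subunit and the one that binds ATP as a regulator, had 138 and 105 CPM in set 1 and 380 and 345 CPM in set 2 (adjusted p = 0.068, and 0.0219 in DESeq2's Wald test with the set term). *Cox5a* had 35.9 and 31.3 CPM, then 91.8 and 79.3 CPM (adjusted p = 0.0824). In CD4+Lrig1+ libraries *Cox6a1* and *Cox7a2* were higher in set 1 only, with log2 ratios of 0.10 and 0.15 there and 0.00 and -0.03 in set 2, and neither passed (adjusted p of 0.661 and 0.711).

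*Cox7a2l* is known for a role in supercomplex assembly, and neither its protein nor supercomplexes were measured here. It was among the most abundant members by TPM, at 461 and 489 TPM in set 1 and 772 and 906 TPM in set 2. TPM is a scale per transcript length, with the same sum in each library, on which genes can be compared. The gene lay above *Atp5b* in the CD4+Lrig1- library of set 2 alone. Its sign was opposite to that of most subunits, at 200 and 206 CPM in set 1 and 548 against 696 CPM in set 2, though the difference did not pass (log2 fold change -0.19 ± 0.10 SE, adjusted p = 0.2). It took 26.3% of the CPM of complex IV in the CD4+Lrig1+ and 31.1% in the CD4+Lrig1- library of set 1, and 28.1% and 36.1% in set 2. With it and the other members outside the 10 subunits counted, complex IV summed to 1.15-fold and 1.01-fold, and over the 10 subunits to 1.23-fold and 1.14-fold.

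Complex V had 15 of 19 members higher in both sets, with medians of 0.27 and 0.11. The 5 subunits of the F1 head, which makes ATP, were all higher in both sets, with medians of 0.23 and 0.11. Of 12 subunits of the stalk and membrane part 9 were, with medians of 0.26 and 0.11. With the trend of all genes with length removed, 3 of the 5 head subunits were higher in both sets and 1 was lower in both. Their medians were then 0.14 and 0.04. Those of the stalk and membrane part were 0.15 and 0.12, with 9 of 12 higher in both sets. *Atp5d*, the delta subunit of the central stalk, had 124 and 99.2 CPM in set 1 and 239 and 191 CPM in set 2 (adjusted p = 0.0158). In TPM it was lower in CD4+Lrig1+ T cells in set 1 (229 against 273) and nearly level in set 2 (292 and 289), and limma on log2(FPKM + 1) gave a log2 fold change of -0.10, a turn of sign. The catalytic pair differed less: *Atp5b* (beta) had 505 and 468 CPM, then 1058 and 1051 CPM (adjusted p = 0.70), and *Atp5a1* (alpha) had 533 and 455 CPM, then 1049 and 990 CPM (adjusted p = 0.293). The 3 genes for the c subunit of the rotor ring encode the same mature protein and were all called. *Atp5g2* had 105 and 80.9 CPM, then 231 and 185 CPM (adjusted p = 0.0122). *Atp5g3* had 74.7 and 55.0 CPM, then 212 and 175 CPM (adjusted p = 0.0145), and *Atp5g1* had 40.4 and 33.0 CPM, then 103 and 81.1 CPM (adjusted p = 0.0174). *Atp5j2*, *Atp5k* and *Atp5e*, which encode small subunits, completed the 7, with adjusted p of 0.0213, 0.0385 and 0.0451. *Atp5h* and *Atp5mpl*, of the peripheral stalk and the membrane part, were the 2 subunits lower in both sets, with log2 ratios of -0.04 and -0.03 for *Atp5h* and of -0.04 and -0.14 for *Atp5mpl*.

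**Figure D3:**
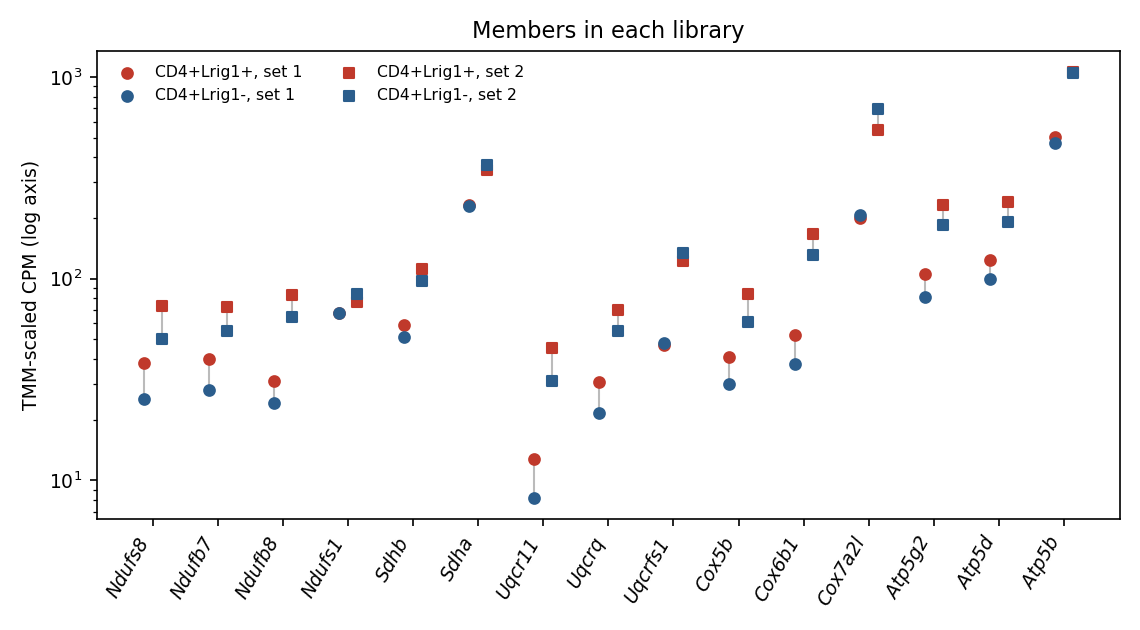
TMM-scaled CPM (y axis, log axis) of 15 members in each library, CD4+Lrig1+ in red and CD4+Lrig1- in blue, set 1 as circles and set 2 as squares, with a grey line joining the libraries of a set. The step from circles to squares exceeds the step from blue to red for most genes, and *Ndufs1*, *Sdha*, *Uqcrfs1* and *Atp5b* show little or no step between colours, while *Cox7a2l* is lower in red in set 2.

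Both groups used the isoforms of most tissues. *Cox4i1* took 100% of the *Cox4* TPM to 3 digits in each library, with 6 counts of *Cox4i2* in 1 library, and *Cox8b*, *Cox8c*, *Cox7b2* and *Ndufa4l2* had 0 counts in all 4. *Cox6a1* took 98.9% to 99.9% of the *Cox6a* TPM. The remainder was *Cox6a2*, the heart and muscle form, which was the one member whose groups did not overlap. It had 15 and 7 counts in CD4+Lrig1+ and 33 and 95 counts in CD4+Lrig1- libraries of set 1 and set 2, and it was called lower with the set term (log2 fold change -2.48 ± 0.70 SE, adjusted p = 0.037), though not in DESeq2's Wald test with that term (adjusted p = 0.0558). Lower without overlap held for 11.8% of all genes. Among the c subunit genes, *Atp5g2* gave 51% and 51.2% of the TPM in the CD4+Lrig1+ and CD4+Lrig1- libraries of set 1 and 45.4% and 45.1% in set 2. The share of *Atp5g3* was 32.9% and 31.6%, then 37.9% and 38.8%, and that of *Atp5g1* was 16% and 17.1%, then 16.7% and 16.2%.

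By level, *Atp5b* had the highest mean over the 4 libraries, 739 TPM, then *Cox7a2l* (657), *Cox4i1* (565), *Atp5a1* (565) and *Uqcrh* (518), with an order that differed between libraries. The subunits of complex I lay below these genes, from 220 TPM for *Ndufa3* to 22.1 TPM for *Ndufa11*. *Ndufa4*, now placed in complex IV, had 261 TPM. Complex II lay within the range of complex I, from 193 TPM for *Sdha* to 97.4 TPM for *Sdhd*. The copies *Ndufb4b* and *Ndufb4c* (6.21 and 7.00 TPM) share sequence with *Ndufb4*, and how reads were split among them is uncertain. *Ndufb4* itself differed between the sets, at 14.4 against 9.36 CPM in set 1 and 36.0 against 36.6 CPM in set 2 (adjusted p = 0.228).

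The genes of the mitochondrial genome held both signs. The summed TPM of the nuclear members was 12127 (CD4+Lrig1+) and 10500 (CD4+Lrig1-) in set 1, and 18825 and 16124 in set 2. That of the 13 mitochondrially encoded OXPHOS genes was 53477 and 56336 in set 1 and 80660 and 77454 in set 2. The ratio of mitochondrial over nuclear TPM was thereby lower in CD4+Lrig1+ T cells in each set, at 4.41 against 5.37 in set 1 and 4.28 against 4.80 in set 2. On the CPM scale the mitochondrial sum was 0.99-fold and 0.996-fold, 3 of 13 genes were higher in both sets and 5 lower in both, and 0 were called in either direction in edgeR's test with or without the set term, with 0 at an unadjusted p under 0.05 without it. With the set term, 1 was called lower with length offsets, 1 with DESeq2's size factors and 3 in DESeq2's Wald test. The shares of all genes called lower were 16.0%, 14.8% and 12.2%. With the trend with length removed, 9 of 13 were lower in both sets and 1 was higher in both. *ATP8* and *ATP6*, subunits of complex V whose reading frames overlap, and *ND2*, of complex I, had the smallest p (adjusted p of 0.0916, 0.402 and 0.358), and log2 ratios of -0.17 and -0.38, -0.13 and -0.19, and -0.12 and -0.18.

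Other mitochondrial genes were counted from lists for comparison, with calls from the set term beside 14.6% higher and 12.8% lower of all genes. Of 50 assembly factors of the complexes 5 were higher and 1 lower, with median log2 ratios of 0.08 and -0.09. *Sdhaf1*, which inserts iron-sulfur clusters into complex II, had 31.6 and 14.9 CPM in set 1 and 44.5 and 25.6 CPM in set 2 (adjusted p = 0.000717). *Ndufaf7*, a methyltransferase of complex I assembly, had 13.5 and 8.5 CPM, then 20.2 and 14.4 CPM (adjusted p = 0.0087). *Cox10*, of haem A synthesis for complex IV, was lower in CD4+Lrig1+ T cells, at 26.5 against 34.6 CPM and 27.7 against 41.3 CPM (adjusted p = 0.00872). The list held both directions.

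Of 18 genes for electron carriers and ubiquinone synthesis 4 were higher and 0 lower, with medians of 0.06 and -0.03. *Etfb*, a subunit of the flavoprotein that feeds electrons from fatty acid oxidation to ubiquinone, had 26.4 and 13.6 CPM in set 1 and 63.1 and 33.9 CPM in set 2 (adjusted p = 0.000355). *Coq8a* and *Coq8b*, paralogous kinase-like proteins of ubiquinone synthesis, had log2 ratios of 0.83 and 0.62 and of 0.30 and 0.50 (adjusted p of 0.00205 and 0.0231). *Cycs*, cytochrome c of somatic cells, had 36.0 and 34.3 CPM, then 95.4 and 89.4 CPM (adjusted p = 0.466), and *Cyc1*, cytochrome c1, 69.7 and 66.3 CPM, then 106 and 115 CPM (adjusted p = 0.872).

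Of 21 TCA cycle genes 0 were higher and 1 lower with the set term in edgeR. In DESeq2 with the term 1 was higher and 1 lower, against 11.5% and 12.2% of all genes. Without the term 0 were under an unadjusted p of 0.05, and the medians were 0.08 and 0.03. The gene called lower was *Idh2*, the mitochondrial NADP-dependent isocitrate dehydrogenase, at 33.4 against 53.0 CPM in set 1 and 43.8 against 81.9 CPM in set 2 (adjusted p = 0.000771). Its groups did not overlap. Of the 21 genes 2 were lower without overlap, against 11.8% of all genes, and 1 was higher without overlap, against 14.3%. *Idh3b* and *Fh1* came next, with log2 ratios of 0.20 and 0.21 and of 0.20 and 0.30 (adjusted p of 0.0634 and 0.0654).

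The list of adenine nucleotide and phosphate carriers, uncoupling proteins and the ATPase inhibitor stood nearer to the OXPHOS subunits by its medians. Of 8 genes tested 3 were higher and 0 lower, with medians of 0.22 and 0.15. With the trend with length removed, the medians were 0.08 and 0.05, and 4 of 8 were higher in both sets and 3 lower in both. *Atpif1*, the inhibitor of the ATP synthase, had 15 and 5.49 CPM in set 1 and 31.5 and 15.1 CPM in set 2 (log2 ratios 1.44 and 1.06, adjusted p = 0.000474). *Slc25a4*, an adenine nucleotide carrier, had 54.7 and 38.8 CPM, then 113 and 89.1 CPM (adjusted p = 0.00679). *Ucp2*, an uncoupling protein abundant in lymphocytes, had 772 and 578 CPM, then 1358 and 1025 CPM (adjusted p = 0.0206). The more abundant carrier *Slc25a5* had log2 ratios of 0.21 and 0.10 (adjusted p = 0.231).

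Of 78 mitochondrial ribosomal protein genes 7 were higher and 0 lower, and 51 (65.4%) were higher in both sets, against 36.5% of all genes, with medians of 0.15 and 0.09. With the trend with length removed, 28 of 78 were higher in both sets and 25 lower in both, with medians of 0.01 and 0.01. *Mrps6* had 22 and 11.6 CPM, then 47.2 and 19.4 CPM (adjusted p = 0.000516), and *Mrpl52* and *Mrpl45* followed (adjusted p of 0.000646 and 0.00211). The cytosolic ribosomal proteins, which share with OXPHOS subunits short and abundant mRNAs, had 2 of 90 higher and 2 lower, medians of 0.09 and -0.21, and 8 (8.89%) higher in both sets. With the set term, 3 were called higher and 10 lower with length offsets, against 13.8% and 16.0% of all genes. In DESeq2's Wald test 2 were higher and 17 lower, against 11.5% and 12.2% of all genes. The lowest p of these were those of *Rps4l* (log2 ratios 1.45 and 1.07), *Rps3a2* (-0.21 and -0.45) and *Rps27l* (0.37 and 0.33), a copy or a paralogue each. Of 21 genes of import and dynamics 5 were higher and 1 lower, with medians of 0.03 and 0.01, led by *Phb* (prohibitin), *Hspe1* and *Hspd1*, the chaperonin pair of the matrix (adjusted p of 0.00801, 0.013 and 0.0154).

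The regulators of mitochondrial biogenesis had mostly the opposite sign. Of 24 tested 19 (79.2%) were lower in both sets, against 41.3% of all genes, and 3 (12.5%) were higher in both, against 36.5%. The medians were -0.12 and -0.21, and 5 were called lower and 2 higher. *Pprc1* and *Ppargc1b*, coactivators of the PGC-1 family, were lower, at 97.2 against 132 CPM and 39.2 against 56.8 CPM for *Pprc1* (adjusted p = 0.00275), and 26.3 against 36.7 CPM and 5.43 against 7.94 CPM for *Ppargc1b* (adjusted p = 0.00931). *Sirt1*, a deacetylase that acts on PGC-1, was lower too (log2 ratios -0.51 and -0.63, adjusted p = 0.00243). *Ppargc1a* had at most 10 counts in a library and was not tested. Both genes called higher regulate metabolism more widely: *Hif1a*, the hypoxia factor known for promoting glycolysis, had 275 and 126 CPM, then 305 and 138 CPM (adjusted p = 8.38e-05), and *Myc* had 125 and 86.9 CPM, then 99.9 and 78.4 CPM (adjusted p = 0.0055). *Nrf1*, *Gabpa*, *Tfam* and *Esrra* did not pass, with log2 ratios from -0.24 to -0.01 over both sets and adjusted p of 0.394, 0.123, 0.286 and 0.579.

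**Figure D4:**
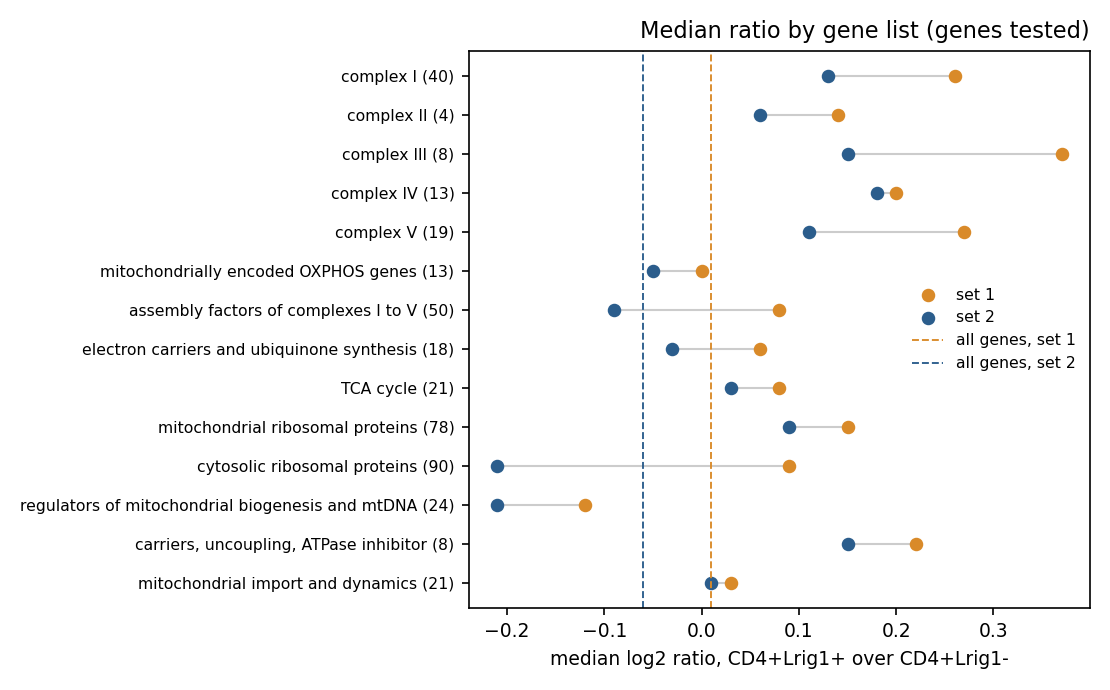
Median log2 ratio between the groups (CD4+Lrig1+ over CD4+Lrig1-) (x axis) for each complex and each comparison list (y axis, with the number of genes tested), set 1 in orange and set 2 in blue, with dashed lines at the medians of all genes tested (0.01 and -0.06). The 5 complexes lie to the right of both lines, the mitochondrially encoded genes lie near them and the regulators of biogenesis lie to the left.

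The ratio of a subunit varied with the length of its transcript. Over the 76 subunits, which share libraries, Spearman's rho between log2 ratio and length was -0.39 in set 1 and -0.22 in set 2, against -0.06 and -0.05 over all genes, and rho between length and the level in set 2 over set 1 was -0.57, against -0.46. The 38 subunits of up to the median of 747 nt had median log2 ratios of 0.34 and 0.17, and 16 of them were among the 24 called higher. The 38 longer ones had medians of 0.22 and 0.11, and 8 were called. The trend of all genes with length was not the same in shape: it gave medians of 0.06 and -0.05 at the lengths of the shorter subunits and of 0.14 and 0.09 at those of the longer ones. With this trend removed, the medians were 0.28 and 0.22 for the shorter and 0.09 and 0.03 for the longer subunits, and over all members 0.14 and 0.12, with 55 of 84 higher in both sets against 32.9% of all genes and 11 lower in both against 45.9%. With length offsets and the set term in edgeR's test, 23 members were called higher and 3 lower (13.8% and 16.0% of all genes). Of the 23, 20 were among the 24 above, and the 3 lower were *Cox6a2*, *Cox7a2l* and *Uqcrfs1* (adjusted p of 0.0474, 0.0294 and 0.0301). *Ndufb6*, *Sdhd* and *Atp5d* were among those no longer called (adjusted p of 0.0699, 0.169 and 0.0515), and *Ndufa4*, *Ndufa7* and *Uqcrh* were (0.0256, 0.0495 and 0.0345). The part that transcript length or RNA quality has in the differences was not tested.

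**Figure D5:**
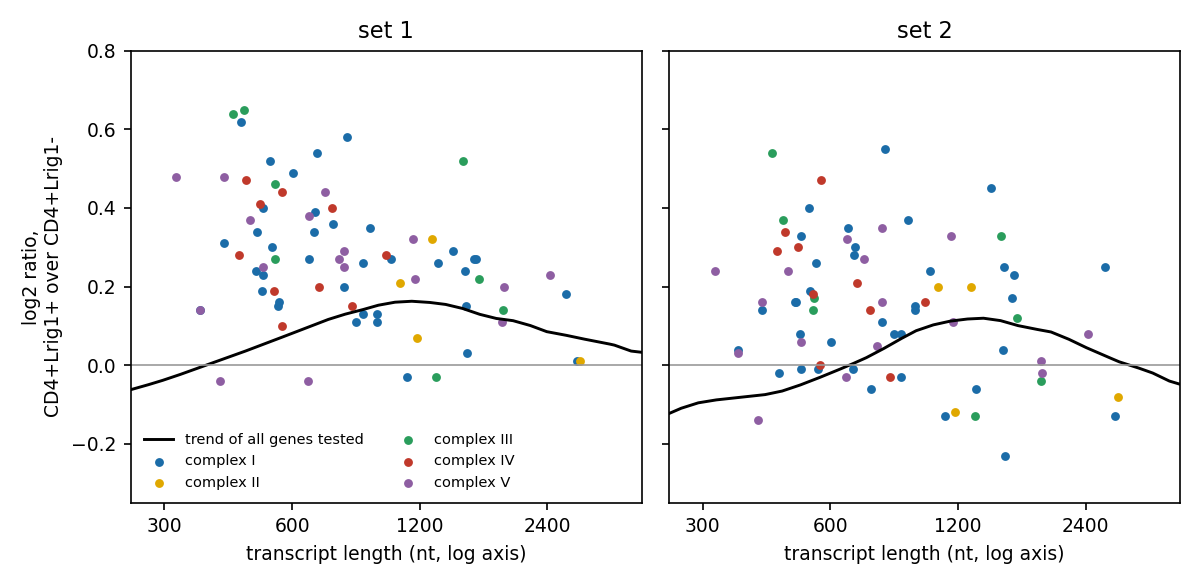
Log2 ratio between the groups (CD4+Lrig1+ over CD4+Lrig1-) (y axis) against transcript length in nt (x axis, log axis) for the 76 subunits, coloured by complex, in set 1 (left) and set 2 (right), with the trend over all genes tested as a black line. Points of short transcripts lie mostly above the line in both sets, and those of long transcripts lie on either side of it.

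The scale decided how many members were counted as higher. By total count in place of TMM the medians of the members were 0.27 and 0.25 and 70 of 84 were higher in both sets, and by DESeq2's size factors they were 0.21 and 0.16 with 62 of 84. In this comparison of scales, the median of all genes in set 2 shifted from -0.08 by TMM to 0.03 by total count. The log2 ratios used above had a median of -0.06 there. In TPM the summed members were 1.15-fold higher in set 1 and 1.17-fold in set 2, and 69 of 84 were higher in both. The level of the cytosolic ribosomal protein genes enters the total count and the sum of TPM directly. These genes held 57488 and 54944 CPM in the CD4+Lrig1+ and CD4+Lrig1- libraries of set 1, and 154734 and 184309 CPM in set 2. By total count without these and the immunoglobulin genes the medians of the members were 0.28 and 0.22, and 69 of 84 were higher in both sets.

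Other features of the cells moved with the groups. The cycling cell markers *Mki67*, *Top2a*, *Ccnb1* and *Cdk1* were all higher in CD4+Lrig1+ T cells, with a summed level of 87.2 against 29.8 CPM in set 1 and 39.4 against 21.8 CPM in set 2, and all 4 were called with the set term. All 7 Treg markers were higher in both sets, summing to 2277 against 231 CPM and 2022 against 166 CPM, and the 5 naive T cell markers summed to 2511 against 4365 CPM and 3164 against 6472 CPM. The 7 T cell markers differed little, at 3590 against 3408 CPM and 5480 against 5370 CPM. The 7 B cell markers summed to 85.9 and 65.2 CPM in set 1 and to 348 and 670 CPM in set 2, with all 7 lower in CD4+Lrig1+ T cells in set 2 and 5 of the 7 lower in both sets. In set 1 *Cd22* (32.8 against 16.2 CPM) and *Cd79b* (13.5 against 6.85 CPM) were higher and raised the sum. The 7 myeloid markers summed to 38.3 and 37.8 CPM, then 175 and 184 CPM, but went both ways. Of these 7, 2 were higher in both sets and 2 lower in both, and with the set term 1 was called higher and 2 lower. The 2 CD8 T cell markers summed to 14.1 and 19.5 CPM, then 51.6 and 97.3 CPM. Each was lower in both sets and was called lower with the set term. Erythroid markers summed to 5.90 and 6.10 CPM, then 52.3 and 59.4 CPM. Of the 5 natural killer cell markers 4 were lower in both sets, with 3 called lower, and the fifth, *Eomes*, also a T cell factor, was higher (log2 ratios 2.51 and 2.16), so that their sums were 31.3 and 27.8 CPM, then 59.2 and 67.2 CPM. The part of these cell states and cell types in the OXPHOS difference was not tested.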

How the data were processed

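RNA of sorted splenic CD4+ T cells was sequenced by the authors, and the submitters' processing notes name Trimmomatic 0.38, HISAT2 2.1.0, Bowtie2 2.3.4.1, StringTie 2.1.3b and the builds GRCm38 and mm10. The estimated counts are as the authors deposited them, per transcript and library, not normalized. The deposited FPKM values come from StringTie too, which divides by transcript length and mapped fragments. The TPM values are also as the authors deposited them, and were summed here over the transcripts of each gene. How StringTie shares reads among transcripts of near-identical or overlapping genes is not given in the sources used here.

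Of the 6 samples in the labels, 4 libraries whose column names give the Lrig1 group were used, and 6 columns of per-sample values in a further table, which name no group, were not. The columns carry no replicate numbers. The set is the table that holds a library: deviations from the group means of the libraries of a set correlated at 0.883, which with 2 sets does not show that they are paired by origin.

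The counts of 129299 transcripts were summed to 45777 genes. In R 4.3.3 genes were filtered by filterByExpr, scaled by TMM and tested with the quasi-likelihood test of edgeR 4.0.16 with Benjamini-Hochberg adjustment over all 16123 genes tested. The study's methods name EdgeR without the test. A prior count of 2 was added for log2 ratios. The trend of log2 CPM with transcript length was fitted by lowess with a span of 0.3. Alternatives were the set as a replicate block, DESeq2 1.42.0 (size factors and Wald test), other filters on low counts, limma 3.58.1 on the log2 of FPKM with a pseudocount of 1 or 0.1, and each library left out. The length offsets, and DESeq2 with the block, were added after the data were seen. The procedure was tested on simulated counts, with the same dispersion for every gene and the same group difference in both sets. The real data need not meet these settings, so the simulation does not give the error rate of the calls here.

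Named genes were, per complex, those with the largest smaller ratio of the 2 sets and one sign (at least 50 counts), core subunits, isoform sets, the members with the smallest p, and 3 genes per list. Some genes that the rule names are not reported here. Others given as a count or as an exception were chosen after their values were seen. Members, lists and promoter letters were chosen with earlier results of these data known. Promoter sequences are those of RefSeq for GRCm38.p6.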

Additional observations from a re-analysis of the deposited data

How the results depend on the processing

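Without the set term, 0 members and 0 genes of the comparison lists were called under each alternative run. The replicate block, with the set as its level, called 24 members higher and 1 lower and 28 list genes higher and 10 lower. It called 14.6% of all genes higher and 12.8% lower, and these calls rest on 1 residual degree of freedom. The block with length offsets gave 23 and 3 members and 27 and 27 list genes, against 13.8% and 16.0% of all genes. The number of genes tested in each list is given with that list above. With DESeq2's Wald test the block gave 20 members higher (11.5% of all genes) and with DESeq2's size factors 24 (13.7%). At an adjusted p under 0.1 the block gave 37 members higher and 1 lower, and the share of all genes at that threshold is not given here.

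Leaving out 1 library reversed the sign of the medians, as the sets differ in level by more than the groups: the median log2 fold change ranged from -0.62 to 1.05 over all members, from -0.55 to 1.06 for complex I, from -0.42 to 0.70 for complex II, from -0.63 to 1.17 for complex III, from -0.62 to 1.03 for complex IV and from -0.66 to 1.12 for complex V. It was negative when the CD4+Lrig1- library of set 1 (-0.32 over all members) or the CD4+Lrig1+ library of set 2 (-0.62) was left out, and positive without either other library. The comparison therefore rests on the ratio within each set.

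Limma on log2(FPKM + 1) and on log2(FPKM + 0.1) gave medians of 0.24 and 0.25 for complex I, 0.14 and 0.14 for complex II and 0.25 and 0.27 for complex IV. A minimum of 10 counts in every library gave 0.24 for complex IV, and length offsets gave 0.18 for complex IV and -0.00 for complex II, a reversal. The summed log2 ratios moved in complex II to 0.02 (size factors), 0.14 (median of members) and -0.02 (length trend removed, reversed) in set 1, and to 0.11 (total count), 0.08 (total without ribosomal and immunoglobulin genes), 0.06 (median) and -0.05 (length trend removed) in set 2. With the length trend removed they were 0.13 for complex I and 0.11 for complex V in set 1, by total count 0.23 and 0.20 in set 2, and by the median of members 0.18 for complex IV in set 2. Of the other summed ratios, that of complex IV in set 2 went from 0.02 to -0.01 with the length trend removed, and the rest kept their sign under the alternatives run. The causes were not tested.

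The log2 fold changes of single members also changed sign when 1 library was left out, with these lowest and highest values: -0.44 to 0.80 (*Atp5a1*), -0.59 to 0.74 (*Atp5b*), -0.23 to 0.87 (*Atp5d*), -0.50 to 1.12 (*Atp5g1*), -0.34 to 1.05 (*Atp5g2*), -0.62 to 1.38 (*Atp5g3*), -0.70 to 1.31 (*Cox4i1*), -0.62 to 1.03 (*Cox5a*), -0.16 to 1.05 (*Cox5b*), -0.55 to 0.69 (*Cox6a1*), -0.69 to 1.53 (*Cox6b1*), -0.19 to 1.20 (*Cox6b2*), -0.70 to 1.44 (*Cox6c*), -1.04 to 1.19 (*Cox7a2*), -1.17 to 0.86 (*Cox7a2l*), -0.56 to 1.03 (*Cox7b*), -0.40 to 0.78 (*Cox8a*), -0.64 to 1.19 (*Ndufa4*), -0.04 to 1.01 (*Ndufb7*), -0.51 to 1.23 (*Ndufb8*), -0.49 to 1.39 (*Ndufb9*), -0.17 to 0.10 (*Ndufs1*), -0.54 to 1.28 (*Ndufs6*), -0.23 to 0.46 (*Ndufs7*), -0.24 to 0.72 (*Ndufv1*), -0.36 to 0.32 (*Sdha*), -0.33 to 0.74 (*Sdhb*), -0.48 to 1.04 (*Sdhd*), -0.46 to 1.55 (*Uqcr10*), -0.62 to 1.82 (*Uqcr11*), -0.34 to 0.71 (*Uqcrc1*), -0.95 to 0.82 (*Uqcrfs1*) and -0.32 to 1.22 (*Uqcrq*). Limma on log2(FPKM + 1) and log2(FPKM + 0.1) reversed *Atp5d* (-0.10 and -0.11), *Sdha* (0.01 and 0.01) and *Ndufs1* (0.00 and 0.01). Length offsets with the replicate block reversed *Atp5b* (-0.04) and *Cox7a2* (-0.04). In all, over the 35 named members, 71 of these values changed sign, 68, each with the replicate block, passed the threshold with the sign kept and 350 did neither.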
